A study of Mus musculus with 6 samples.

Results

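The proteasome genes described here were chosen by their symbols: all Psma, Psmb, Psmc and Psmd genes with a number, Psme1 to Psme4 and Psmg1 to Psmg4, without the inducible subunits Psmb8, Psmb9 and Psmb10. This gave 44 of the 52550 genes in the files. Of these, 43 reached a value of 1 in 3 or more of the 6 libraries and were tested. The remaining member, Psmb11, a beta subunit of thymus epithelium, had 0 reads in all 6 libraries, against a floor of 3 reads per library. The lowest of the tested members, Psma8, stood at 243 or more in every library, so the minimum of 1 decided nothing among them. The set holds the core, base and lid, but also the interferon-inducible caps Psme1 and Psme2 and the variant alpha subunit Psma8, so it is wider than the constitutive particle.

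The proteasome is the protease that degrades most ubiquitin-tagged proteins of the cell. Its core is a barrel of alpha and beta subunits with the active sites inside. The core is capped by a regulatory particle, made of a base with a ring of ATPases that unfolds substrates and a lid that removes the ubiquitin chain. Assembly chaperones build the rings, and alternative activator caps can take the place of the regulatory particle. In blood cells, interferon induces alternative catalytic subunits that replace the constitutive ones and form the immunoproteasome.

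Poly(A) RNA was sequenced from mouse bone marrow cells labelled as primary hematopoietic stem cells. The knockout (KO) group held 3 libraries of the genotype VAV1crePpp2caf/f, in which floxed alleles of Ppp2ca, the gene of a catalytic subunit of protein phosphatase 2A, are combined with Cre recombinase from a Vav1 driver active in blood cells. The wild-type (WT) group held 3 libraries of the genotype Ppp2caf/f, with the same floxed alleles and no Cre named, so effects of Cre and of the targeted alleles cannot be told apart. Age, sorting markers, the number of animals and the deleted exons are not given in the sources used here, and nothing states that the libraries come from separate animals, so a p-value covers only the spread among the 6 libraries. The comparison asked which genes differed between KO and WT cells.

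Depth was 46033994 to 58692037 reads over genes in KO libraries and 37951985 to 48665968 in WT libraries. Levels are given as normalised reads, which are the counts of a library after division by its own size factor. Ppp2ca had 23728, 22419 and 24046 normalised reads in KO libraries 1 to 3, against 32909, 33451 and 33169 in WT libraries 1 to 3, with no overlap between the groups (log2 fold change −0.50 ± 0.07 SE; limma, adjusted p = 0.00268). The KO mean was thus still 70.5% of the WT mean, and with the targeted exons unknown this value over the whole gene does not show the deletion itself. Of 10 stem cell genes, 9 fell, and their summed level was 30971 to 48978 in KO and 87285 to 98875 in WT. Cd34 and Kit held most of that level. Of 7 granulocyte-monocyte progenitor genes, 6 rose, and their sum was 1868347 to 2083204 in KO and 1259504 to 1489000 in WT. By limma, 10.3% of all genes tested rose and 13% fell. The calls of Mpo, which held most of that sum, and Elane ended in 9 and 5 of the 19 alternatives described below. Both ended without limma's intensity trend, with total read scaling, with quantile normalization, without KO library 3 and without WT library 3. Mpo alone, a primary granule enzyme, had 1142749 to 1299083 normalised reads in KO and 889494 to 1033701 in WT, so both groups carried abundant RNA of a later progenitor gene beside the 10 stem cell genes, none of which was at 0 in all libraries. The part of either list in the proteasome levels was not tested. In bulk RNA, fewer cells of a type and less RNA per cell cannot be told apart.

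Proteasome genes were mostly higher in KO, by modest factors. Of the 43 tested members, 27 rose and 1 fell, by limma with a Benjamini-Hochberg adjusted p below 0.05. Over all 20136 genes tested, 10.3% rose, 13% fell and 23.3% did either. The median log2 fold change of the members was 0.42, or 1.34-fold, where the median of all genes tested was −0.02. The 27 members that rose did so by 0.32 to 0.80 on the log2 scale. In 35 members all 3 KO values lay above all 3 WT values, which was so in 19.1% of all genes tested. In 1 member all KO values lay below all WT values, against 21.7% of all genes. edgeR on the recovered reads called 29 members higher and 1 lower, with 12.4% of all its genes higher and 14.9% lower. DESeq2 called 28 higher and 1 lower, with 12.6% higher and 15.4% lower overall.

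These genes are highly expressed, and highly expressed genes rose more often than others. Of 5303 genes with a mean of at least 2000 normalised reads, 25% rose and 10.8% fell, with a median log2 fold change of 0.13. Of the 40 members at that level, 65% rose and 0 fell. Across all members the 6 libraries gave 1.18%, 1.04% and 1.10% of their reads to the 44 genes in KO libraries 1 to 3, against 0.919%, 0.924% and 0.984% in WT libraries 1 to 3. The groups did not overlap, and KO library 2 was the lowest of the KO libraries.

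**Figure D1:**
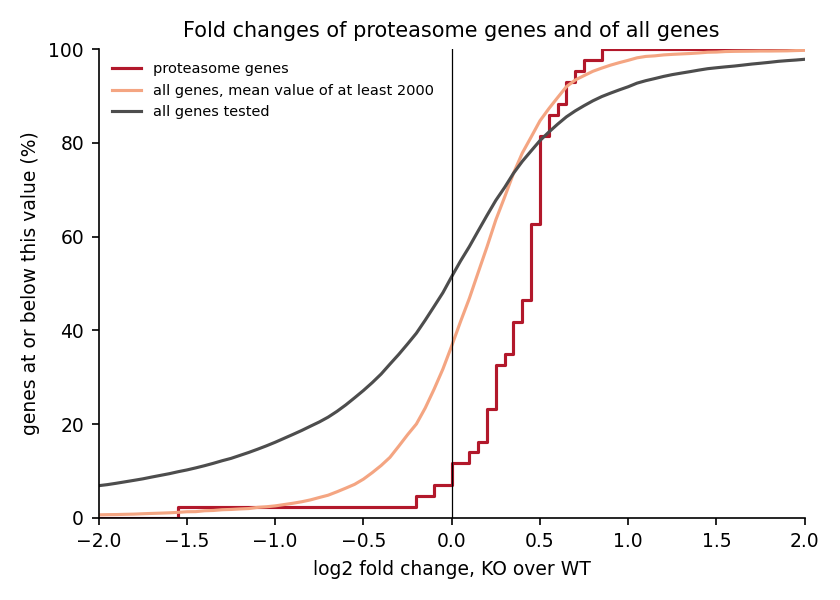
Cumulative share of genes (vertical axis, %) at or below each log2 fold change of KO over WT (horizontal axis) for the 43 proteasome genes, the 5303 genes with a mean of at least 2000 and all 20136 genes tested. The proteasome curve is shifted to the right and steep, with quartiles of 0.22 and 0.49, while those of all genes are −0.57 and 0.38. Under quantile normalization the members' median is 0.20.

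The size of the rise depended on the scaling. KO libraries summed to more normalised reads than WT libraries, and scaling to equal totals, tried after the data were seen, lowered the median of all genes by 0.13 to −0.16 and that of the members to 0.27, with 18 members higher and 2 lower, where 6.64% of all genes were higher and 17.4% lower. Total read scaling divides each library by its own factor and so moves nearly all genes alike. The members' median therefore had to stay near its distance from that of all genes (0.43, against 0.44 on the deposited scale). This distance is no check of the rise. Quantile normalization moved the median of all genes by 0.10 to 0.08 and left the members 0.13 above it. It called 14 members higher, while 10.4% of all genes were. Without limma's intensity trend 9 members were higher, while 5.32% of all genes were. No member that rose turned its sign under any of the 19 alternatives. The call held in all 19 for 9 of them, which were Psma3, Psmb5, Psmc1, Psmc6, Psmd3, Psmd6, Psmd13, Psmd14 and Psme3. Leaving out KO library 3 left 15 members higher, while 5.1% of all genes were. The 12 members that lost the call were Psma2, Psma4, Psmb3, Psmb4, Psmb7, Psmc2, Psmc4, Psmc5, Psmd1, Psme4, Psmg1 and Psmg3, with log2 fold changes of 0.28 to 0.79 and limma adjusted p-values of 0.0506 to 0.165. Each of the other libraries, when left out, cost 1 to 6 calls. Psma4, Psmb3, Psmb4, Psmd8, Psme4 and Psmg1 lost theirs without KO library 1 (adjusted p 0.0519 to 0.101) or without WT library 1 (0.0629 to 0.115), and Psmg1 without KO library 2 (0.055). Psma4, Psmb3, Psmb4, Psmd8 and Psmg3 did so without WT library 2 (0.0545 to 0.116), and Psmb3, Psmb4, Psme4 and Psmg1 without WT library 3 (0.066 to 0.0903).

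**Figure D2:**
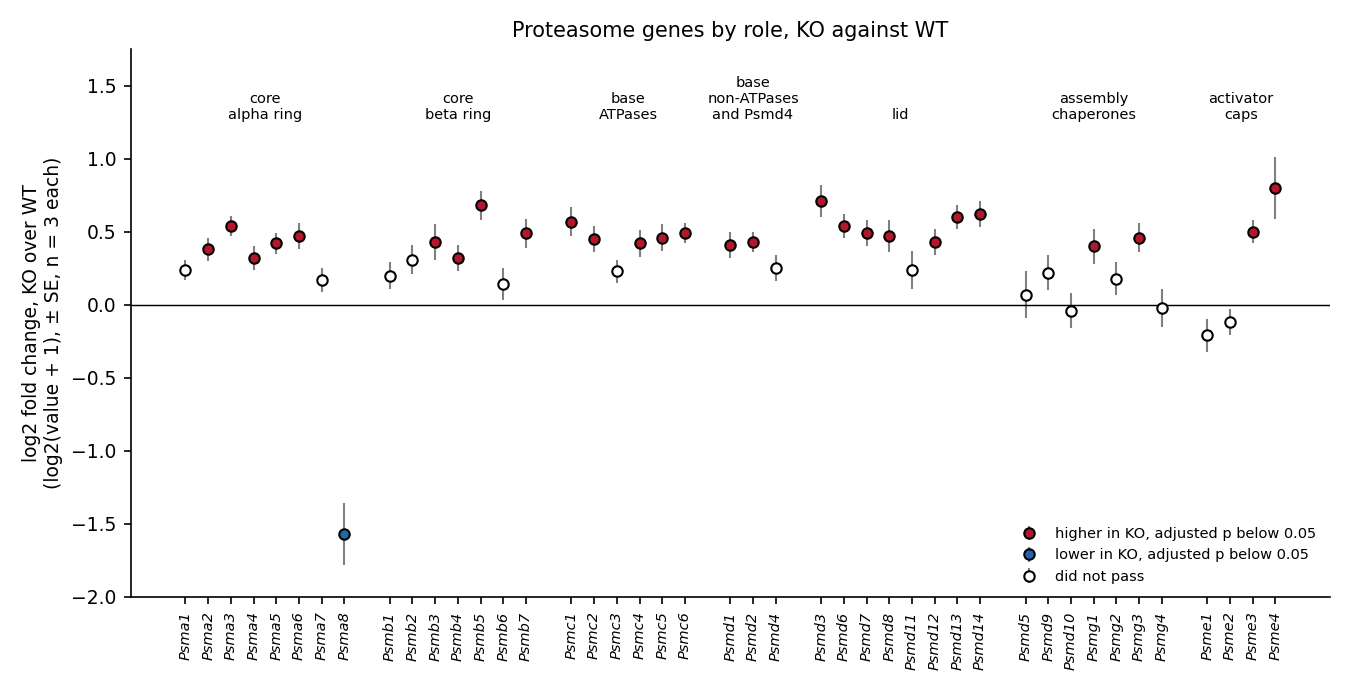
Log2 fold change of KO over WT (points, with the standard error, n = 3 each) for the 43 tested proteasome genes, ordered by role. Filled red points rose and the blue point fell (adjusted p below 0.05), and open points did not pass. Most core, base and lid genes lie between 0.2 and 0.7, Psma8 lies at −1.57, and total read scaling or quantile normalization puts Psmb6 below 0.

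RefSeq promoter windows of GRCm38.p6, from 250 bases before to 50 after the annotated start, were present for 35 of the 43 tested members. They were searched on both strands for TGACNNNGC, the core of the antioxidant response element that NRF1 can bind, and for CCAAT. The first was found in 6 of 35 members (17.1%) and in 14% of all genes with a window. Among members that rose it was found in 4 of 24, and among the other members in 2 of 11. CCAAT was found in 12 of 35 members (34.3%) and in 41.1% of all genes. Both shares were near those of all genes, and a missing match says only that these letters are not in the window.

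The stretches around the match are shown for the catalytic pair Psmb5 and Psmb6, of which only the first rose, for Psme4, with the largest rise, and for Psmd9, which did not pass. Each is written 5′ to 3′ on the gene's strand, with the matched 9 bases in capitals. The first base of the match lies 47, 9, 7 and 31 bases before the RefSeq start in Psmb5, Psmb6, Psme4 and Psmd9, so in Psme4 the match spans the start. The stretches come from chr14:54618014-54618062 on the minus strand, and from chr11:70525328-70525376, chr11:30771748-30771796 and chr5:123228139-123228187 on the plus strand.
Psmb5: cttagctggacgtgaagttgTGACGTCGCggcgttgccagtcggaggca
Psmb6: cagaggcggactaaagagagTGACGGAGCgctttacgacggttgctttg
Psme4: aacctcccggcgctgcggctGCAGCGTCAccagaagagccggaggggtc
Psmd9: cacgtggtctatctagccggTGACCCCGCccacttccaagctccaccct
In Psme4 the match is on the opposite strand. Psmc6 and Psmd12, which rose, also hold a match and are not shown. The letters were present both in members that rose and in members that did not pass. A part of this motif in the rise was not tested.

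Of the 8 tested genes of the lid, which removes the ubiquitin chain, 7 rose, with a median log2 fold change of 0.52. Psmd14, the metalloprotease that cuts the ubiquitin chain off the substrate, had 20603, 17634 and 18990 normalised reads in KO libraries 1 to 3, against 11767, 12338 and 13132 in WT libraries 1 to 3. The groups stood well apart, with a log2 fold change of 0.62 ± 0.09 (SE; limma, adjusted p = 0.00304). Psmd13, a scaffold subunit of the lid, had 7391, 7492 and 7482 in KO and 4693, 5044 and 5011 in WT (0.60 ± 0.08 SE; limma, adjusted p = 0.00211). Its KO libraries were nearly equal. Psmd13 shares 342 exon bases with Sirt3 on the opposite strand, and strand use in counting is not given, so reads from those bases cannot be assigned. Sirt3 itself fell, by 0.84 on the log2 scale (limma, adjusted p = 0.00168).

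Psmd3, another scaffold subunit, had the largest rise within the lid, to 162.4% of the WT level, with 11299, 11874 and 11745 in KO and 6002, 7846 and 7650 in WT. It was singled out after its values were seen. Psmd6 (0.54), Psmd7 (0.49), Psmd8 (0.47) and Psmd12 (0.43), further structural subunits, rose as well. Psmd11 did not pass: its KO values were 11136, 8406 and 9227 and its WT values 8247, 7184 and 8808, so the groups overlapped (0.24, 95% interval −0.05 to 0.54; limma, adjusted p = 0.216). Psmd11 also has 2 near-identical transcripts elsewhere, Gm14048 and A730017L22Rik, both of which fell (log2 fold changes −0.90 and −0.62), and how reads shared between them were counted is not given. Sem1, a small lid subunit outside the symbol rule, rose by 0.39 on the log2 scale, and 6 of 19 alternatives ended that call.

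Of the 6 ATPase genes of the base, 5 rose, with a median of 0.46. Psmc1 had 22591, 18089 and 19669 normalised reads in KO libraries 1 to 3, against 13387, 13185 and 14023 in WT libraries 1 to 3 (0.57 ± 0.10 SE; limma, adjusted p = 0.00594). Psmc6 had 12969, 13527 and 13522 in KO and 9070, 9670 and 9727 in WT (0.49 ± 0.07 SE; limma, adjusted p = 0.00362). Every KO library exceeded every WT library in both genes. Psmc2 (0.45), Psmc4 (0.42) and Psmc5 (0.46) rose by like amounts. Psmc3 did not pass (0.23, 95% interval 0.04 to 0.42; limma, adjusted p = 0.085), although its 3 KO values, 13565 to 15759, lay above its WT values of 12068 to 12753.

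Both large scaffold subunits of the base rose, calls that ended without the intensity trend and with quantile normalization. Psmd2, which receives ubiquitin shuttle proteins, had 30728, 29086 and 31121 normalised reads in KO libraries 1 to 3, against 21733, 22340 and 23350 in WT libraries 1 to 3 (0.43 ± 0.07 SE; limma, adjusted p = 0.00552, or 0.0543 without the trend and 0.105 with quantile normalization). Psmd1, the docking site of the ubiquitin receptor Adrm1, had 21093, 20539 and 21448 in KO and 14568, 17456 and 15518 in WT (0.41 ± 0.09 SE; limma, adjusted p = 0.0134, or 0.082 without the trend and 0.134 with quantile normalization). WT library 2 was the highest of its group for Psmd1 and still below every KO library. Psmd4, a ubiquitin receptor, did not pass (0.25, 95% interval 0.04 to 0.46; limma, adjusted p = 0.0808). Adrm1 rose by 0.57, with the deubiquitinases Uchl5 (0.68), which binds it, and Usp14 (0.64).

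In the alpha ring, which forms the gate of the core, 5 of 8 tested genes rose and 1 fell. Psma3 had 26702, 26922 and 24933 normalised reads in KO libraries 1 to 3, against 17181, 18323 and 18527 in WT libraries 1 to 3 (0.54 ± 0.07 SE; limma, adjusted p = 0.00273). Psma2 (0.38), Psma4 (0.32), Psma5 (0.42) and Psma6 (0.47) rose too. Psma1 (0.24, 95% interval 0.07 to 0.41) did not pass (limma, adjusted p = 0.0521), and passed in 7 of 19 alternatives. Over the alternatives its log2 fold change ran from 0 to 0.29 after rounding, and its sign turned in 1 of them. Psma7 did not pass (0.17, 95% interval −0.01 to 0.36; limma, adjusted p = 0.162), and its sign turned under quantile normalization.

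Psma8 went the other way and was the only member that fell. It encodes a variant alpha subunit known from the testis, where it takes the place of Psma7. The gene lies at chromosome 18, 14706151 to 14762299 in the coordinates of the files, and shares no exon bases with another gene of GENCODE M21. It had 243, 341 and 244 normalised reads in KO libraries 1 to 3, against 967, 816 and 671 in WT libraries 1 to 3, so every KO library lay below every WT library and the KO mean was 33.7% of the WT mean (log2 fold change −1.57 ± 0.21 SE; limma, adjusted p = 0.00263). The call held in all 19 alternatives. Per kilobase of its principal transcript, Psma8 stood at 163 normalised reads in KO and 484 in WT, where Psma7 stood at 18658 in KO and 16551 in WT.

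**Figure D3:**
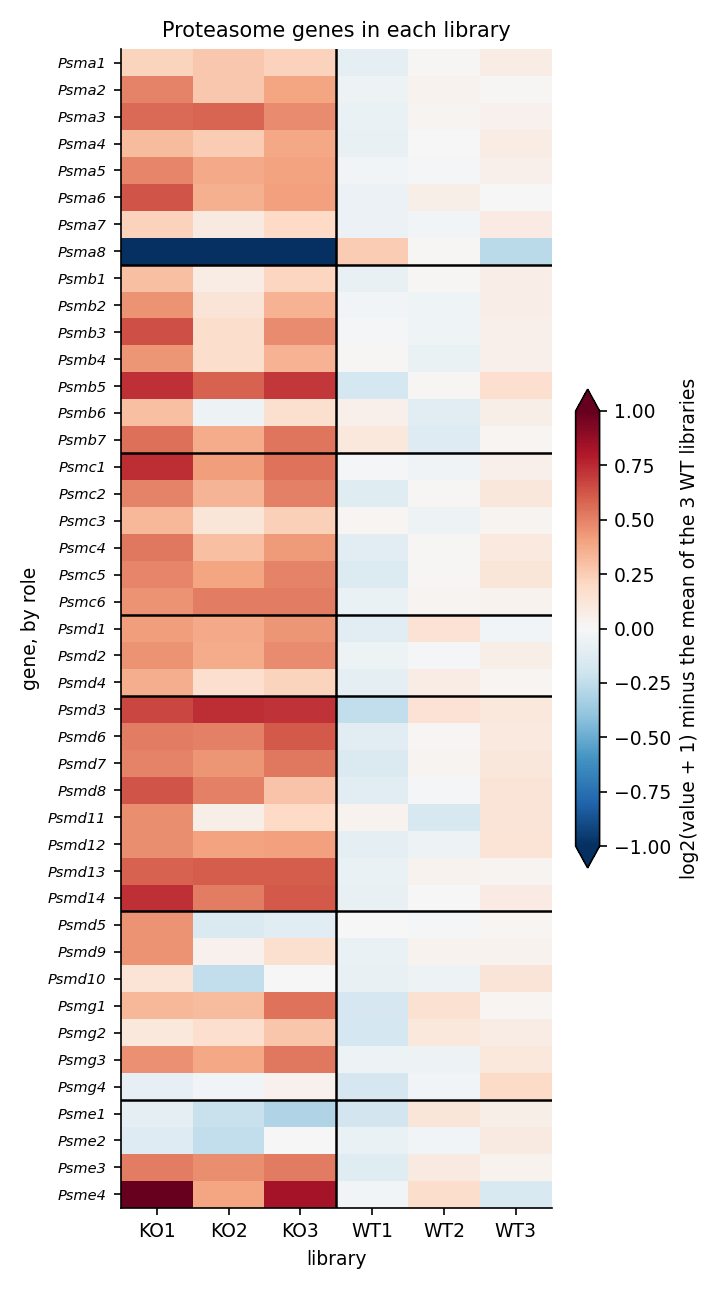
Heat map of log2(value + 1) minus the mean of the 3 WT libraries for each proteasome gene (vertical axis, in role order from the alpha ring to the activator caps) in the KO and WT libraries (horizontal axis). Red is above and blue below the WT mean. The scale ends at 1 and −1, which Psma8 exceeds in all KO libraries and Psme4 in KO library 1. The median over genes is 0.46, 0.32 and 0.41 in KO libraries 1 to 3, and −0.07, 0.01 and 0.06 in WT libraries 1 to 3, while the members' median fold change is 0.27 with total read scaling.

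In the beta ring, 4 of 7 tested genes rose, with a median of 0.32. Psmb3 (0.43) and Psmb4 (0.32) rose, and both calls were lost in 9 of 19 alternatives. Psmb2 (0.31, 95% interval 0.08 to 0.53; limma, adjusted p = 0.0581, or 0.0175 without KO library 2) and Psmb1 (0.20, adjusted p = 0.147 by limma) did not pass. Psmb2 passed in 6 of 19 alternatives, with log2 fold changes from 0.07 to 0.40. Those of Psmb1 ran from 0 to 0.26 after rounding. Psmb1 passed in 1 of 19 alternatives, and its sign turned in 1. Psmb5, which carries the chymotrypsin-like site, had 15593, 14137 and 15314 normalised reads in KO libraries 1 to 3, against 8290, 9460 and 10526 in WT libraries 1 to 3 (0.68 ± 0.10 SE; limma, adjusted p = 0.00402).

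Psmb7, with the trypsin-like site, had 7853, 6942 and 7798 in KO and 5793, 4900 and 5458 in WT (0.49 ± 0.10 SE; limma, adjusted p = 0.0111), and its groups did not overlap either. Without KO library 3 its adjusted p was 0.0536. It shares 405 exon bases with Nek6 on the opposite strand, whose level was 2391 to 3199 in KO and 2156 to 3244 in WT. Psmb6, with the caspase-like site, had 20159, 15758 and 18304 in KO and 16942, 15170 and 17019 in WT, with overlapping groups (0.14, 95% interval −0.11 to 0.38; limma, adjusted p = 0.414). The promoters of both Psmb5 and Psmb6 hold the motif match printed above. The sign of Psmb6 turned under total read scaling (−0.01) and quantile normalization (−0.10). Whether the catalytic genes differed from one another in their response was not tested.

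None of the inducible counterparts was called higher, and 1 of the 3 fell. Psmb8, which replaces Psmb5, had 24599, 24213 and 25324 normalised reads in KO libraries 1 to 3, against 24369, 28559 and 28490 in WT libraries 1 to 3 (−0.13, 95% interval −0.33 to 0.07; limma, adjusted p = 0.323). It passed as lower under total read scaling and quantile normalization. Psmb9, which replaces Psmb6, fell, with 3596, 4570 and 4434 in KO and 5944, 6095 and 5918 in WT (−0.52 ± 0.11 SE; limma, adjusted p = 0.0128, or 0.0655 without the intensity trend). Psmb10, which replaces Psmb7, had 3988, 3537 and 4128 in KO and 3993, 3579 and 4146 in WT (−0.01, 95% interval −0.25 to 0.23). Psmb9 shares 212 exon bases with Tap1 on the opposite strand, and Tap1 fell by 0.53 on the log2 scale.

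Ratios of the inducible to the constitutive gene, which need no scaling between libraries, were lower in every KO library than in every WT library. Psmb8 over Psmb5 averaged 1.648 ± 0.068 in KO and 2.888 ± 0.16 in WT (SD, n = 3 each, difference −0.81 on the log2 scale). Psmb10 over Psmb7 averaged 0.516 ± 0.012 in KO and 0.726 ± 0.035 in WT (SD, difference −0.49). For Psmb9 over Psmb6 the means were 0.237 ± 0.056 in KO and 0.367 ± 0.03 in WT (SD, difference −0.66). The two-sided exact permutation test gave p = 0.1 for each ratio and 0.1 after Benjamini-Hochberg adjustment over the 3, which is the smallest p that 3 against 3 allows. They are ratios of reads per gene, not of molecules, since gene lengths differ.

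**Figure D4:**
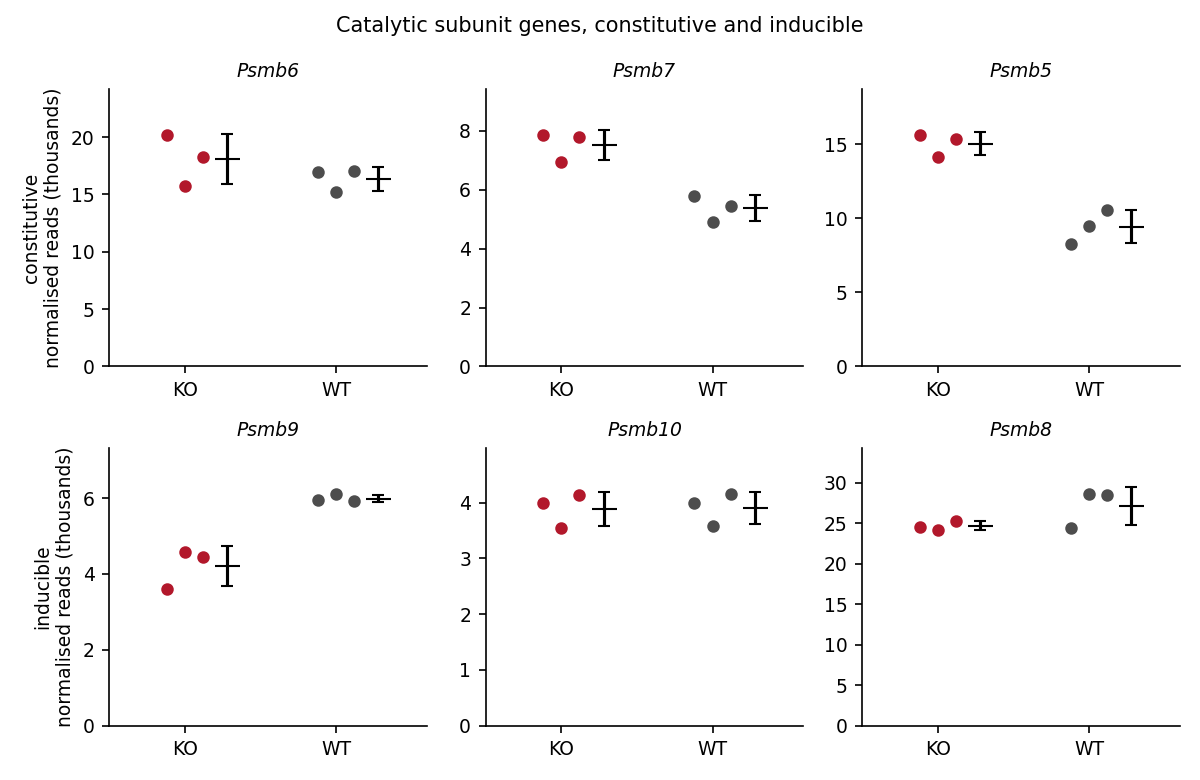
Normalised reads (vertical axes from 0, in the multiple the axes name) of the constitutive catalytic genes Psmb6, Psmb7 and Psmb5 (top) and of the inducible gene that replaces each (bottom), with one point per library in KO and WT and the mean ± SD beside them. Psmb7 and Psmb5 are higher in all KO libraries, Psmb6 and Psmb10 overlap between the groups, and Psmb9 is lower in all KO libraries.

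Of the 4 activator caps, 2 rose. Psme3, a nuclear cap, had 22891, 22159 and 23001 normalised reads in KO libraries 1 to 3, against 14791, 17082 and 16484 in WT libraries 1 to 3 (0.50 ± 0.08 SE; limma, adjusted p = 0.00495). Psme4, a nuclear cap known for acetylated histone turnover, showed the largest rise of all members, with 1504, 878 and 1187 in KO and 654, 754 and 600 in WT (0.80 ± 0.21 SE; limma, adjusted p = 0.0287). KO library 2 was closest to the WT libraries, and 7 of 19 alternatives ended the call. Its adjusted p was 0.0652 without KO library 1, 0.0918 without KO library 3, 0.0783 without WT library 1 and 0.0824 without WT library 3.

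Psme1 and Psme2, which form the interferon-inducible cap, did not pass the test in either direction. Psme1 had 7253, 6637 and 6291 in KO and 6839, 8444 and 8059 in WT (−0.21, 95% interval −0.45 to 0.04; limma, adjusted p = 0.208), and it passed as lower in 3 of 19 alternatives. Psme2 had 8582, 7893 and 9355 in KO and 8964, 9189 and 9972 in WT (−0.12, 95% interval −0.34 to 0.09; limma, adjusted p = 0.385). The groups overlapped in both genes. Of 16 interferon response genes, 12 fell and 0 rose, with a median of −1.29, where 13% of all genes tested fell and 10.3% rose. Their summed level was 113280 to 140565 in KO and 195935 to 198704 in WT. Most of the sum was B2m, with means of 108525 in KO and 159812 in WT, which fell by 0.57. The part of that list in the levels of Psme1, Psme2 and the inducible subunits was not tested.

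Of the 7 assembly chaperones, 2 rose, with a median log2 fold change of 0.18 over the group. Psmg3, a chaperone of alpha ring assembly, had 2389, 2271 and 2514 normalised reads in KO libraries 1 to 3, against 1677, 1683 and 1868 in WT libraries 1 to 3 (0.46 ± 0.10 SE; limma, adjusted p = 0.0155). Psmg1, which pairs with Psmg2, had 3688, 3648 and 4276 in KO and 2605, 3254 and 2971 in WT (0.40 ± 0.12 SE; limma, adjusted p = 0.0443), and 10 of 19 alternatives ended the call. Without KO library 3 its adjusted p was 0.165. Psmg2 (0.18, 95% interval −0.07 to 0.43) and Psmg4 (−0.02, 95% interval −0.32 to 0.28) did not pass.

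Psmd5, Psmd9 and Psmd10, which help to assemble the base, did not pass. Psmd9 stood at 0.22 (95% interval −0.07 to 0.50), Psmd10 at −0.04 (95% interval −0.32 to 0.25) and Psmd5 at 0.07 (95% interval −0.29 to 0.43). Psmd5 had 12959, 8567 and 8776 in KO and 9318 to 9591 in WT, so KO library 1 stood above and the other KO libraries below the WT libraries, and without KO library 1 its log2 fold change was −0.13 (limma, adjusted p = 0.341). Pomp, the maturation factor of the core, was nearly equal in both groups, at 8014 ± 487 in KO and 7952 ± 610.3 in WT (SD, n = 3 each; 0.01).

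Among 14 tested proteasome-associated factors, 5 rose and 3 fell, with a median of 0.09, where 10.3% of all genes tested rose and 13% fell. Uchl5 and Usp14 rose in all 19 alternatives as well. The other rises were those of Sem1, of Adrm1, whose call 2 of 19 alternatives ended, and of AI314180, the adaptor Ecm29 (0.48), whose call 7 of 19 ended, 4 of them left-out libraries. Zfand5, a zinc finger protein that stimulates the proteasome, fell by 0.62 on the log2 scale, a call that held in all 19 alternatives. Fbxo7 fell by 0.48 and lost its call in 1 of 19 alternatives. Ube3c (−0.28; limma, adjusted p = 0.0466) lost its call in 10 of 19, including the replicate block and each of the 6 left-out libraries. Of 8 subunits of the chaperonin TRiC, which folds newly made proteins, 6 rose and 0 fell, with a median of 0.44. Of all genes with a mean of at least 2000, 25% rose and 10.8% fell. Those that rose included Tcp1 (0.58), Cct2 (0.54) and Cct8 (0.51). The calls of Cct5 and Cct7 each ended in 4 of 19 alternatives, among them total read scaling and quantile normalization. A difference between TRiC and the proteasome genes was not tested.

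Genes that control proteasome transcription went both ways. NRF1, encoded by Nfe2l1, is the transcription factor that raises proteasome genes when degradation falls short, and it is freed by the protease Ddi2 and the glycanase Ngly1. Of 11 tested genes of this axis, 4 rose and 2 fell, where 10.3% of all genes tested rose and 13% fell. Nfe2l1 had 762, 1174 and 1011 normalised reads in KO libraries 1 to 3, against 482, 579 and 2246 in WT libraries 1 to 3 (0.18; limma, adjusted p = 0.851). WT library 3 stood far above the other WT libraries, and without it the log2 fold change of Nfe2l1 was 0.87 (limma, adjusted p = 0.0406).

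Ddi2 rose, with 2305, 2217 and 2243 in KO and 1308, 1172 and 1166 in WT (0.89; limma, adjusted p = 0.00154). Ngly1 fell by 0.68 and Mafg, a small Maf partner of NRF1, rose by 0.69 on the log2 scale. On the supply side, 3 of 15 genes of ubiquitin and its delivery rose and 2 fell, where 10.3% of all genes tested rose and 13% fell. Of genes with a mean of at least 2000, 25% rose and 10.8% fell. The calls of the 3 that rose ended in 7 (Rps27a), 8 (Ube2d3) and 9 (Vcp) of 19 alternatives, and all 3 ended without the intensity trend, with total read scaling and with quantile normalization. Ubb, a polyubiquitin gene, had 91872 ± 3465 in KO and 121517 ± 7551 in WT (SD, n = 3 each; −0.40; limma, adjusted p = 0.0107, or 0.073 without the intensity trend), and the conjugating enzyme Ube2r2 fell by 0.70. Rps27a, a fusion of ubiquitin with a ribosomal protein, rose by 0.38 (limma, adjusted p = 0.0219, or 0.105 without the trend, 0.0902 with total read scaling and 0.172 with quantile normalization).

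Values within a group were close. For the 40 members with a mean of at least 2000, the median coefficient of variation was 6.92% in KO and 5.65% in WT, where that of all 5303 genes at this level was 7.83% in KO and 8.37% in WT. Markers of other cell types moved with the genotype as well, where 10.3% of all genes tested rose and 13% fell. All 6 megakaryocyte genes and 7 of 8 erythroid genes fell, with summed levels of 4776 to 6646 and 10436 to 11798 in KO, against 20410 to 24587 and 47519 to 54498 in WT. Itga2b and Pf4 held most of the megakaryocyte sum, and Car2 most of the erythroid sum. Dendritic cell genes fell in 7 of 8 and monocyte and macrophage genes in 4 of 8, with sums of 13770 to 15441 and 71813 to 87827 in KO, against 36168 to 43140 and 99564 to 128438 in WT. Flt3 and Irf8 held most of the dendritic sum, and Lyz2 and Ly6c2 most of the monocyte sum. Ly6c2 was not called (0.21; limma, adjusted p = 0.36). The calls of Ccr9 (dendritic) and Vcam1 (monocyte and macrophage) ended in 7 and 10 of 19 alternatives.

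Of 5 tested B lineage genes 1 fell, Ighm, where 13% of all genes tested fell. The list summed to 5052 to 6899 in KO and 18558 to 25070 in WT, with Ebf1 and Pax5 at 0 in every library. Ighm held most of the WT sum, and Cd79b did not pass (−0.07; limma, adjusted p = 0.759). Of 6 tested T and NK genes 3 fell and 1 rose, Nkg7, which held most of the sum of 41734 to 44001 in KO and 34376 to 35631 in WT, and Cd8a was at 0 in every library. Of 9 mature neutrophil genes 2 rose and 1 fell, with sums of 115786 to 256843 in KO and 82992 to 140814 in WT. The 2 that rose, S100a8 and S100a9, held most of the sum, and their calls ended in 11 and 6 of 19 alternatives. The part of any of these cell types in the levels of the proteasome genes was not tested.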

How the data were processed

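Poly(A) RNA was sequenced in 3 KO and 3 WT libraries, prepared with a Vazyme VAHTS kit, per the labels' protocols. The submitters' processing notes name StringTie and HISAT2, and as builds mm10 and mm8, with no version or role. Each deposited file holds 1 signal value per gene, which the file headers call only expression. Divided by a step of its own, each library gave whole reads (100% of values within 0.01 of a read), so the values are counts over a size factor, and these reads were recovered. GENCODE M21 holds 49035 of the 52550 identifiers in the same version, all at the coordinates of the files, but only 34 of the 44 members. The other members were matched without the version, and exon overlaps and transcript lengths follow M21. For strand and shared reads, the handling was not given in the sources used here.

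Testing used limma 3.58.1 in R 4.3.3 (intensity trend) on log2(value + 1), two-sided, over genes that reached 1 in 3 or more libraries, with Benjamini-Hochberg adjustment over all 20136 genes and a threshold of 0.05. Fold changes on this scale understate low genes. edgeR 4.0.16 and DESeq2 1.42.0 were run on the recovered reads. Other scalings, filters, pseudocounts, variance models, a replicate block and left-out libraries were tried, and scaling to total reads was added after seeing the data. The scripts were tested on simulated data. Near-identical transcripts had at least 95% identity over at least 150 bases.

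Named were the 2 members with the smallest p in each role, the constitutive catalytic genes, the Psme genes, members called against the majority, the largest rise and fall, and up to 3 genes per pathway list, with others said to be so or given to account for every member. Members and lists were chosen with earlier results of these data known. Of the listed symbols, Shfm1 and Ufd1l were matched as Sem1 and Ufd1, and Paaf1 was not analysed. No library pair agreed within sampling noise (chi-square per degree of freedom from 38 to 209.4 over the 15 pairs). Precision is limited by 3 libraries per group, and floors cover counting error only, as reads carry no molecular identifiers.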

Additional observations from a re-analysis of the deposited data

How the results depend on the processing

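Of the 27 proteasome genes higher in KO, 9 were left without the intensity trend and 14 with quantile normalization. Of all genes, 5.32% and 10.4% were higher in these settings. Leaving out 1 library gave 15 to 27 higher members, beside 5.1% to 9.14% of all genes, with 15 and 5.1% without KO library 3. Members lower in KO numbered 2 with library quality weights, total read scaling or quantile normalization, where Psme1 joined Psma8. Over all genes, 3630, 3510 and 2203 were lower in these settings, against 2622. The members' median was 0.27 with total read scaling and 0.20 with quantile normalization, and 0.36 to 0.45 when 1 library was left out. Over all genes, 1071 were higher without the intensity trend, 3198 with library quality weights and 1337 with total read scaling, against 2069. Leaving out 1 library gave 993 to 1787 higher and 1565 to 2604 lower genes, with 993 and 1714 without KO library 3, and 1565, 1639 and 1602 lower without WT libraries 1, 2 and 3, each with fewer samples. Total read scaling gave 3510 lower genes, so that 1337 against 3510 replaced 2069 against 2622. Other causes of these moves were not tested. Ppp2ca kept its direction and call in all 19 alternatives, and no result turned its direction past the threshold. The replicate numbers did not pair the libraries (correlations of same-numbered deviations of −0.02, −0.01 and −0.02). The replicate block gave 24 higher members, with 1705 of all genes higher (8.47%) and 2157 lower. Upper quartile scaling gave 2464 higher and 2472 lower genes, edgeR 2075 and 2496, and DESeq2 2430 and 2964. Ratios of catalytic genes moved within 1 SD.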

Other observations

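Values of 3 near-identical transcripts of proteasome genes are given here, none of which passed the test, and no difference from the parent gene was tested. Gm3375, which matches Psmb5 over 796 bases at 98.9% identity, had 348, 338 and 264 normalised reads in KO libraries 1 to 3, against 157, 189 and 228 in WT libraries 1 to 3 (log2 fold change 0.73; limma, adjusted p = 0.0579). Gm3375 passed in 5 of 19 alternatives, among them edgeR and DESeq2 on the recovered reads. Gm13835, a full match to 665 bases of Psma3, had 153, 192 and 119 in KO and 188, 88.5 and 117 in WT (0.28, 95% interval −0.54 to 1.09; limma, adjusted p = 0.628). Psme2b, which matches Psme2, had 119, 194 and 104 in KO and 187, 266 and 226 in WT (−0.74; limma, adjusted p = 0.123), and passed in 2 of 19 alternatives. Beside the parent genes these levels are small, and how reads were divided between them is not given.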
